A study of Homo sapiens with 6 samples.

Results

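The amino acid transporters of the solute carrier (SLC) families were examined in RNA-seq libraries of MHCC-97H cells, an established human hepatocellular carcinoma cell line. The group holds 33 genes of the SLC1, SLC3, SLC6, SLC7, SLC36, SLC38 and SLC43 families, chosen by gene symbol from the 25445 rows of the count table. All 33 were found, and their symbols matched GENCODE version 29. Cells in DMEM with serum received 10 μM 6j, a compound derived from the alkaloid sophoridine, or its solvent for 16 h. Each group had 3 libraries, numbered 1 to 3, and those given solvent are named non-treated. Whether they came from separate cultures is not stated, so the p-values measure only the spread between these libraries.

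Amino acids do not cross the plasma membrane unaided. Sodium-coupled carriers such as SLC38A1, SLC38A2 and SLC6A9 concentrate them in the cell, and exchangers such as SLC1A5, SLC7A5 and SLC7A11 trade an internal amino acid for an external one. Several SLC7 proteins are light chains that reach the membrane only when joined to the heavy chain SLC3A2. In many cell types the transcription factor ATF4 raises transcripts of such carriers when amino acids are scarce or the endoplasmic reticulum is stressed.

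The libraries held 31533403 to 38018349 counts. Levels are in CPM, which scales each gene's count to the same library size for all libraries, here the TMM normalized one, and does not correct for gene length. A gene was called at a Benjamini-Hochberg adjusted p under 0.05 in edgeR's quasi-likelihood test over 15957 rows with a fold change above 1.5. Of 8 hepatocyte lineage markers, 7 (ALB and AFP among them) stayed under 1 CPM in every library, and HNF4A was between 0.55 and 1.40 CPM. Of 4 epithelial markers, KRT8 and KRT18 were abundant, EPCAM was at 0 and CDH1 stayed under 1 CPM. Their sum was 904 to 1109 CPM in non-treated and 705 to 823 CPM in 6j treated cells, and its part in the results was not tested. In bulk RNA, fewer cells with a transcript and less of it per cell cannot be told apart. Of 4 leukocyte, 3 endothelial and 4 fibroblast markers, PTPRC, CD3E, MS4A1 and COL1A2 were at 0 throughout, PECAM1, VWF and LUM stayed under 1 CPM, CDH5 and PDGFRB were at 1.41 to 6.81 CPM, CD68 was at 39.8 to 70.5 CPM and COL1A1 at 203 to 275 CPM, and the summed level of each list overlapped between the groups.

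Of the 33 transporters, 28 had enough counts to be tested. SLC1A4, SLC1A5, SLC6A9, SLC7A11, SLC38A1 and SLC43A1 rose in 6j treated cells, by 1.64-fold to 2.20-fold. These 6 compare with 2.48% of all rows called higher, and with 2.8% of the 10161 rows with a mean of at least 10 CPM, where 25 transporters lie. The transporters were chosen with earlier results of these data known, and the 10 CPM limit after seeing the data. The shares here are therefore descriptions and no test of the group. No transporter was called lower by edgeR without a block, against 1.12% of all rows. SLC38A3 alone was called lower by edgeR with the replicate number as a block, a fit that called 2.46% of all rows lower and 4.01% higher, and by DESeq2 (1.79% of the rows it gave an adjusted p). At an unadjusted p under 0.05 and a fold above 1.5 in the fit without a block, SLC38A3 was again the 1 lower transporter (2.4% of all rows). Without a fold limit, an adjusted p under 0.05 was reached by 8 transporters that were higher (4.79% of all rows) and 2 that were lower (4.37% of all rows). All 3 6j treated libraries exceeded every non-treated one for 13 transporters (16% of all rows) and below them for 4 (15.8% of all rows). The median log2 fold change was 0.34 over the 28 tested transporters and 0.00 over all rows, where the quartiles were −0.21 and 0.23. Of the 28, SLC7A7 reached the low-count filter in all 6j treated libraries but in 1 non-treated library, so that it passed through the group where it was higher. Without non-treated replicate 1, 3 transporters were called higher. The rows called numbered 574, and 186, 193 and 379 without non-treated replicate 1, 6j treated replicate 2 and non-treated replicate 3. When the null itself was set at a 1.5-fold change (glmTreat in edgeR), 0 transporters were called, with 6 higher (2.43% of all rows) and 0 lower (0.865% of all rows) at an unadjusted p under 0.05.

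**Figure D1:**
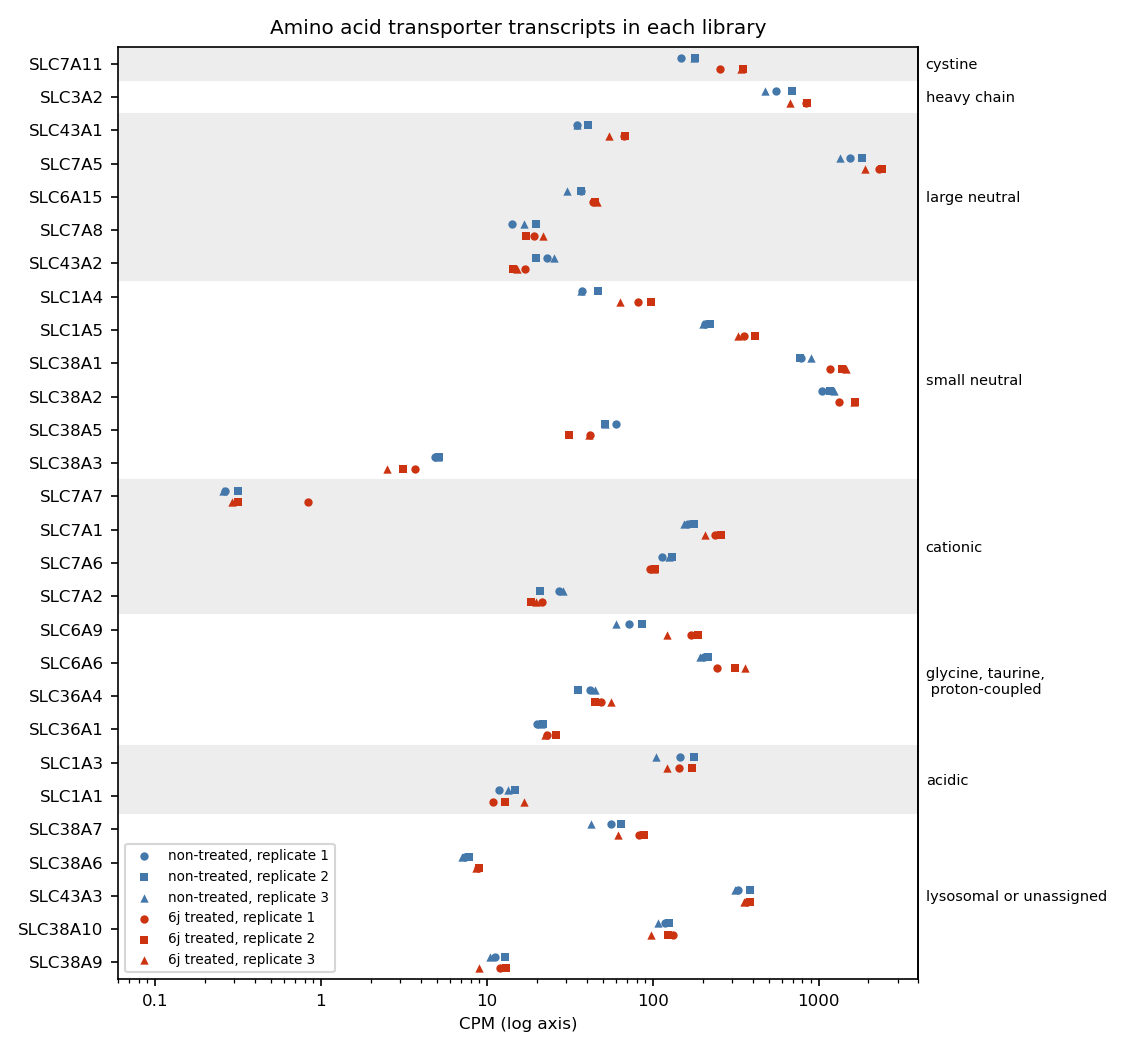
CPM (log axis) of the 28 tested transporters in each library, grouped by substrate class, with blue for non-treated, red for 6j treated and 1 marker shape per replicate number. The 3 red points lie right of all blue points for 13 transporters, SLC7A11 and SLC1A5 among them, and left of them for SLC7A6, SLC38A3, SLC38A5 and SLC43A2.

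**Figure D2:**
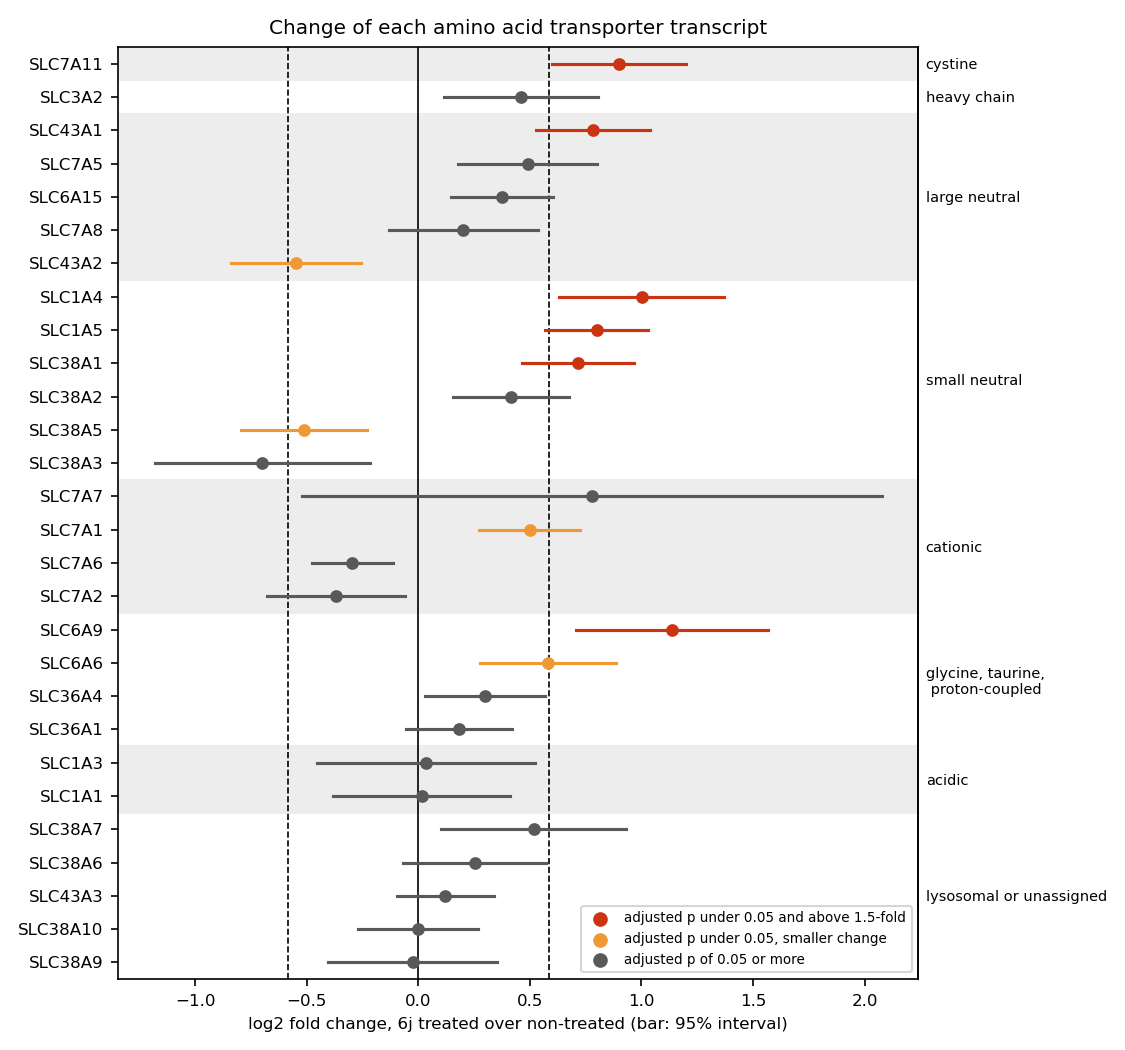
Log2 fold change of each tested transporter (6j treated over non-treated) with its 95% interval from edgeR, grouped by substrate class, with dashed lines at a 1.5-fold change in either direction. The 6 red transporters were called, and the interval of each lies above 0.

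The carriers of small neutral amino acids held 3 of the 6 called genes, and members on either side of 0. This class has 8 members, of which 6 were tested, 4 with a positive and 2 with a negative log2 fold change, and its median was 0.57. SLC1A4 (ASCT1, chromosome 2, 64988477 to 65023865, GRCh38) exchanges alanine, serine, cysteine and threonine. It was at 37.7, 47.0 and 37.2 CPM in non-treated replicates 1 to 3 and at 82.0, 98.3 and 63.9 CPM in the 6j treated replicates. The groups were apart, and the replicates numbered 2 were the highest in both. SLC1A4 rose by 1.00 ± 0.16 (SE) on the log2 scale, with an adjusted p of 0.0116 in edgeR. The call was lost without non-treated replicate 1 (adjusted p = 0.0651).

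SLC1A5 (ASCT2, chromosome 19, 46774883 to 46788594) is a main route of glutamine into many tumor cells. Non-treated cells had 208, 221 and 200.5 CPM and 6j treated cells 356, 415 and 326 CPM. The lowest 6j treated library was well above the highest non-treated one. SLC1A5 rose by 0.80 ± 0.10 (SE) on the log2 scale. Its adjusted p of 0.00489 in edgeR was the smallest among the transporters, and the call held in 6 of 6 fits that each left out 1 library.

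SLC38A1 (SNAT1, chromosome 12, 46183063 to 46270017) is a sodium-coupled glutamine carrier. Its libraries had 779, 771 and 902 CPM without and 1176, 1390 and 1462 CPM with 6j. The groups did not overlap, and the replicates numbered 3 were the highest in both. SLC38A1 rose by 0.72 ± 0.11 (SE) on the log2 scale, with an adjusted p of 0.0096 in edgeR. The call was lost without non-treated replicate 1 (adjusted p = 0.0616) or without 6j treated replicate 2 (adjusted p = 0.0513).

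SLC38A2 (SNAT2), a related carrier of alanine and glutamine, was the more abundant in CPM per kb of exon (175 against 81.6 in non-treated cells). SLC38A2 had 1055, 1174 and 1237 CPM in non-treated and 1322, 1651 and 1647 CPM in 6j treated cells. All 6j treated libraries lay above the non-treated ones, but the log2 fold change of 0.41 (95% interval 0.16 to 0.67) did not pass in edgeR (adjusted p = 0.0553).

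SLC38A5 and SLC38A3, the system N carriers of glutamine and histidine, had negative values. SLC38A5 was at 60.2, 51.4 and 51.6 CPM in non-treated and 41.8, 31.5 and 41.1 CPM in 6j treated cells. All 6j treated libraries were below the non-treated ones, and SLC38A5 was lower with an adjusted p of 0.0368 in edgeR, though its log2 fold change of −0.51 stayed under the fold limit. SLC38A3 was scarce, with counts of 184, 162 and 177 in non-treated and 141, 118 and 86 in 6j treated libraries. Its log2 fold change was −0.70 (95% interval −1.18 to −0.22, adjusted p = 0.0737 in edgeR). A fit blocked on the replicate number called it lower (adjusted p = 0.0248 in edgeR), as did DESeq2 (adjusted p = 0.0427). SLC38A4, the liver-type member of the family, had 0 to 5 counts in all libraries and was not tested, and SLC7A10 was at 0 in all.

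The core letters TGATGNAA of the C/EBP-ATF response element (CARE), to which ATF4 binds with a C/EBP factor, were searched on both strands of the RefSeq promoter windows (GRCh38.p14). Of the transporters, 24 had windows. The letters stood in 6 of their 45 windows, each from a different gene, and in 3.62% of the 35116 windows of all genes. Windows of 1 gene can overlap. The genes were SLC1A3, SLC1A4, SLC1A5, SLC3A2, SLC7A1 and SLC38A1. Of the called genes with a window, SLC6A9 and SLC43A1 had no match, and SLC7A11 had no window. The core of the antioxidant response element, TGACNNNGC, was in 7 of the 45 windows, those of SLC1A3, SLC1A5, SLC3A2, SLC7A1, SLC7A5, SLC7A6 and SLC7A7, and in 13.3% of all windows. No match of 1 motif shared bases with a match of the other there. The stretches around the CARE match of the 3 called genes and of SLC7A1 and SLC3A2 were chosen by outcome. Their transcripts were called or had an adjusted p under 0.05 in edgeR with or without the replicate block. SLC3A2 met this in the fit with the block (adjusted p = 0.000342) and not in the fit without it (0.0943). The stretch of SLC1A3, which has a CARE match as well, was left out. SLC1A3 showed no detected change (log2 fold change 0.04, adjusted p = 0.939 in edgeR, and 0.62 with the block). A match was therefore not limited to genes that rose. The chosen stretches run 5′ to 3′ on the strand of the gene, with the match in capitals.
SLC1A4, chr2:64989341-64989430, + strand: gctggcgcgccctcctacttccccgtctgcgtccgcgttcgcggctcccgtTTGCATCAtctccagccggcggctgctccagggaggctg
SLC1A5, chr19:46784876-46784965, − strand: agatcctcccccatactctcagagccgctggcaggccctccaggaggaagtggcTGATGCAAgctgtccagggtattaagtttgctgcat
SLC38A1, chr12:46266472-46266561, − strand: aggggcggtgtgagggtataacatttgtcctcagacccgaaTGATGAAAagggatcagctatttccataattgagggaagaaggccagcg
SLC7A1, chr13:29595659-29595748, − strand: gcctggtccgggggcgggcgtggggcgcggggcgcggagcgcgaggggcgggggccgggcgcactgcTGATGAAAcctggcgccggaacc
SLC3A2, chr11:62881719-62881748, + strand: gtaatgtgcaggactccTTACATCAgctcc
In SLC1A4 and SLC3A2 the match is on the strand opposite to the gene. In GENCODE version 29 the matches of SLC1A5, SLC3A2 and SLC7A1 lie in UTR exons and those of SLC1A4 and SLC38A1 in introns. Each window is set on a RefSeq start, of which a gene can have several, and of those shown here only that of SLC7A1 lies at the GENCODE start of its gene, with the others on starts further inside. A match is a description of letters, not a bound site.

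The cystine carrier rose, and none of the other light chains that pair with its heavy chain was called. SLC7A11 (xCT, chromosome 4, 138164097 to 138242349) imports cystine for glutamate and so feeds glutathione synthesis. It had 148, 180.4 and 177 CPM in non-treated and 255, 350 and 339 CPM in 6j treated cells. Replicate 1 was the lowest in both groups, which did not overlap. SLC7A11 rose by 0.90 ± 0.13 (SE) on the log2 scale, with an adjusted p of 0.0085 in edgeR. This value ranged from 0.82 to 1.03 when 1 library was left out, and SLC7A11 was called in 6 of these 6 fits.

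SLC3A2 (CD98 heavy chain, chromosome 11, 62856102 to 62888875) had 555, 694 and 473 CPM in non-treated and 845, 855 and 670.2 CPM in 6j treated cells. The ranges overlapped, since non-treated replicate 2 lay above 6j treated replicate 3, while within each replicate number the 6j treated library was the higher. The log2 fold change was 0.46 (95% interval 0.12 to 0.81, adjusted p = 0.0943 in edgeR). Blocked on the replicate number, it passed the adjusted p (0.000342 in edgeR) but not the fold limit, and it was called without non-treated replicate 2 (0.62, adjusted p = 0.0469). The related heavy chain SLC3A1, known from kidney, had 0 to 12 counts and was not tested.

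SLC7A5 (LAT1, chromosome 16, 87830023 to 87869488), the exchanger of leucine and other large neutral amino acids, was the transporter with the highest level. It had 1553, 1824 and 1341 CPM in non-treated and 2304, 2430 and 1896 CPM in 6j treated cells. The groups did not overlap, with 6j treated replicate 3 close to non-treated replicate 2. The log2 fold change of 0.49 (95% interval 0.18 to 0.80) did not pass in edgeR (adjusted p = 0.0575), and with the replicate block its adjusted p was 7.6e-05, still short of the fold limit. It was called without 6j treated replicate 3 (0.59, adjusted p = 0.0357). Its value is uncertain to the extent that the counting shared reads with the pseudogene copies SLC7A5P1 and SLC7A5P2.

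SLC7A6 (y+LAT2), another SLC3A2 partner that exchanges cationic for neutral amino acids, pointed the other way. It had 115, 130.3 and 125 CPM in non-treated and 97.0, 103 and 101 CPM in 6j treated cells. The groups did not overlap, and the log2 fold change of −0.30 had an adjusted p of 0.0513 in edgeR. SLC7A6OS, on the opposite strand, shares exon sequence with it. SLC7A8 (LAT2) was at 14.3 to 19.9 and 17.4 to 21.7 CPM, with overlapping groups. SLC7A7 (y+LAT1) had 9 to 12 counts in 5 libraries and 32 in 6j treated replicate 1.

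Per kb of exon, the 6 light chains that pair with SLC3A2 summed to 360, 424 and 320.4 CPM per kb in non-treated and 528, 565 and 452 CPM per kb in 6j treated cells. This was 3.16 to 3.51 times the level of SLC3A2 in non-treated and 3.24 to 3.49 times in 6j treated cells, so this ratio overlapped between the groups. With the length of the longest coding transcript in place of all exons, the ratios were 1.43 to 1.59 and 1.46 to 1.57. SLC7A5 held 88.2% to 91.9% of the light chain level in all libraries. SLC7A6 held 4.19%, 4.05% and 5.15% of it in non-treated and 2.42%, 2.41% and 2.95% in 6j treated cells. SLC7A11 held 4.27%, 4.41% and 5.73% and then 5.01%, 6.42% and 7.79%. The share of SLC7A6 was lower in all 6j treated libraries, and that of SLC7A11 was higher within each replicate number, although its groups overlapped. A share also moves with the level of the other light chains. Mean CPM per kb went from 16.3 in non-treated to 13.2 in 6j treated cells for SLC7A6, and from 331 to 466 for SLC7A5.

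**Figure D3:**
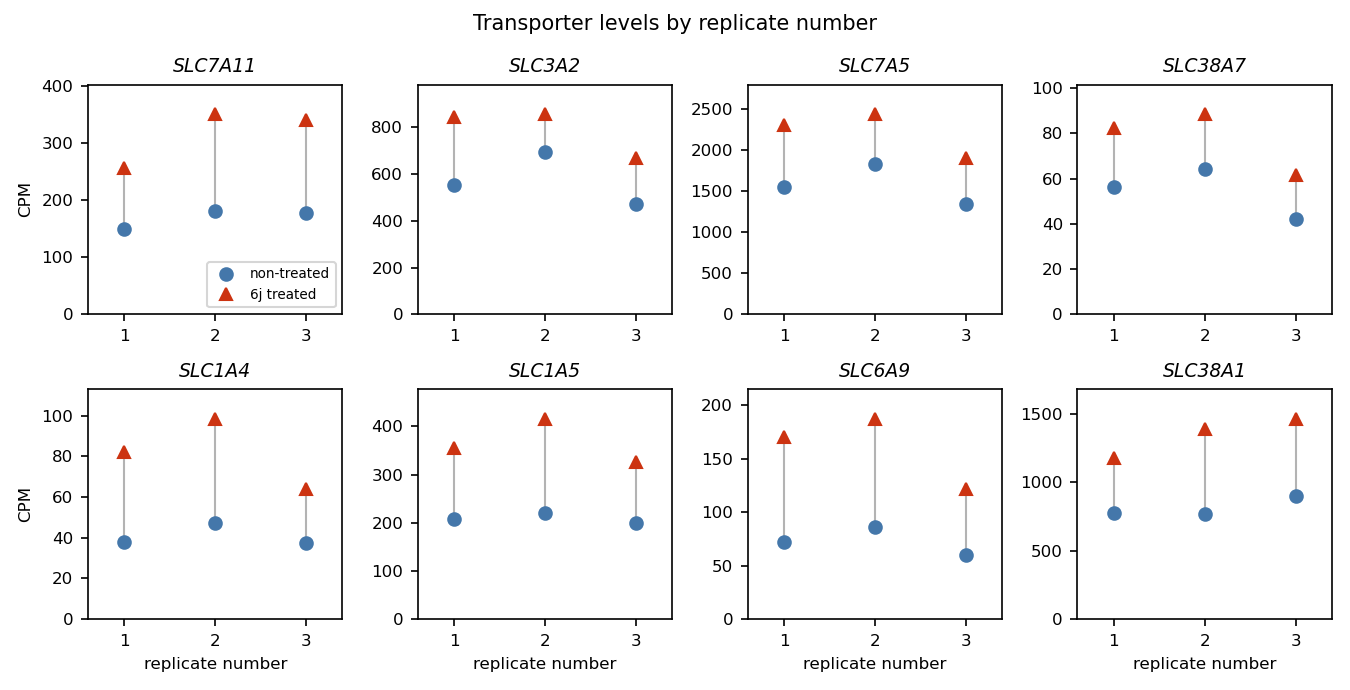
CPM of 8 transporters by replicate number, with circles for non-treated, triangles for 6j treated and a grey line joining libraries of the same number. The triangle lies above the circle in every panel and number, while the replicates numbered 3 are lowest in both groups for SLC3A2, SLC7A5, SLC38A7, SLC1A4, SLC1A5 and SLC6A9.

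The other carriers of large neutral amino acids differed within the SLC43 family. SLC43A1 (LAT3, chromosome 11, 57484534 to 57515786), which moves leucine without exchange, had 34.9, 40.7 and 35.0 CPM in non-treated and 67.5, 68.2 and 54.5 CPM in 6j treated cells. SLC43A1 rose by 0.78 ± 0.11 (SE) on the log2 scale with an adjusted p of 0.0075 in edgeR. The groups did not overlap, and the call held in 6 of 6 fits that left out 1 library. SLC43A2 (LAT4, chromosome 17, 1569267 to 1628886), with a like substrate range, had 23.1, 19.7 and 25.5 CPM and then 16.9, 14.4 and 15.3 CPM. All 6j treated libraries lay below the non-treated ones, and the difference was −0.55 ± 0.13 (SE) on the log2 scale, with an adjusted p of 0.0328 in edgeR but short of the fold limit. It was called without 6j treated replicate 1 (−0.61) or without non-treated replicate 2 (−0.64). SLC43A3, a family member known to carry purine nucleobases, was at 314 to 384 and 357 to 387 CPM, with overlapping groups. SLC6A15 (B0AT2), a carrier of branched-chain amino acids and proline, was at 30.4 to 37.0 and 43.9 to 46.5 CPM. Its groups were apart and its log2 fold change was 0.38 (adjusted p = 0.0502 in edgeR).

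The glycine carrier had the largest log2 fold change of the 28. SLC6A9 (GlyT1, chromosome 1, 43991500 to 44031467) was at 71.7, 86.2 and 60.1 CPM in non-treated and 171, 187 and 122 CPM in 6j treated cells. The groups did not overlap, and the replicates numbered 3 were the lowest in both. SLC6A9 rose by 1.14 ± 0.18 (SE) on the log2 scale, with an adjusted p of 0.0133 in edgeR. The call was lost without non-treated replicate 1 (adjusted p = 0.0725) or without 6j treated replicate 2 (adjusted p = 0.061). CCDC24, which shares exon sequence with SLC6A9 on the opposite strand, was at 4.28 ± 0.918 and 6.87 ± 0.923 CPM (SD, n = 3 each). For CCDC24 the adjusted p was 0.0781 in edgeR, and it was called higher with the replicate block (adjusted p = 0.0106) and by DESeq2 (adjusted p = 0.0373).

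The taurine carrier SLC6A6 (chromosome 3, 14402576 to 14489349) had 204, 215 and 194 CPM in non-treated and 244, 312 and 363 CPM in 6j treated cells. All 6j treated libraries lay above the non-treated ones. Its fold change of 1.496, with an adjusted p of 0.0321 in edgeR, lay just under the limit. It was called when only rows with an Ensembl identifier were tested (log2 fold change 0.60) and without 6j treated replicate 1 (0.72). It shares exon sequence with GRIP2 on the opposite strand (16.2 ± 4.62 and 14.2 ± 2.82 CPM, SD, n = 3 each), and the counting could share reads with the pseudogene SLC6A6P1. The proton-coupled carriers SLC36A1 and SLC36A4 had log2 fold changes of 0.18 and 0.30 with adjusted p of 0.316 and 0.148 in edgeR.

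Among the carriers of cationic amino acids, SLC7A1 (CAT1, chromosome 13, 29509410 to 29595688), a main importer of arginine, was higher with an adjusted p of 0.019 in edgeR. It had 164, 178 and 155 CPM in non-treated and 238, 257 and 207 CPM in 6j treated cells. The groups did not overlap, and the difference of 0.50 ± 0.10 (SE) on the log2 scale was short of the fold limit. SLC7A2 (CAT2) had 27.3, 21.0 and 28.9 CPM and then 21.6, 18.5 and 19.8 CPM. These ranges overlapped, and its log2 fold change was −0.37 (adjusted p = 0.127 in edgeR). SLC7A3 (CAT3) had no count in any library, which allows up to 3 counts, or 0.0789 to 0.0951 CPM, in each.

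Of the glutamate and aspartate carriers, SLC1A3 and SLC1A1 were tested and showed no detected change. SLC1A3 (EAAT1) was at 146, 178 and 104 CPM and then 144, 173 and 123 CPM, with the replicates numbered 2 highest and those numbered 3 lowest in both groups. Its log2 fold change was 0.04 (95% interval −0.45 to 0.52, adjusted p = 0.939 in edgeR). SLC1A1 (EAAT3) was at 13.4 ± 1.48 and 13.5 ± 3.03 CPM (SD, n = 3 each). SLC1A2 (EAAT2) had 1 to 6 counts in non-treated and 4, 19 and 15 counts in 6j treated libraries and was not tested.

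Of the members that act at lysosomes or could not be assigned to a class, none was called. SLC38A7, which exports glutamine and asparagine from lysosomes, had 56.1, 64.2 and 42.3 CPM in non-treated and 82.5, 88.4 and 61.7 CPM in 6j treated cells. Its groups overlapped, because non-treated replicate 2 lay above 6j treated replicate 3. The log2 fold change was 0.52 (adjusted p = 0.116 in edgeR, and 0.000129 with the replicate block, short of the fold limit). It was called without 6j treated replicate 3 (0.66, adjusted p = 0.0476). SLC38A9, the lysosomal arginine sensor, was at 11.5 ± 1.23 and 11.3 ± 2.08 CPM (SD, n = 3 each), with a log2 fold change of −0.03 and a 95% interval of −0.40 to 0.35. SLC38A6 and SLC38A10 had log2 fold changes of 0.25 and −0.00, with 95% intervals of −0.07 to 0.57 and −0.27 to 0.27.

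**Figure D4:**
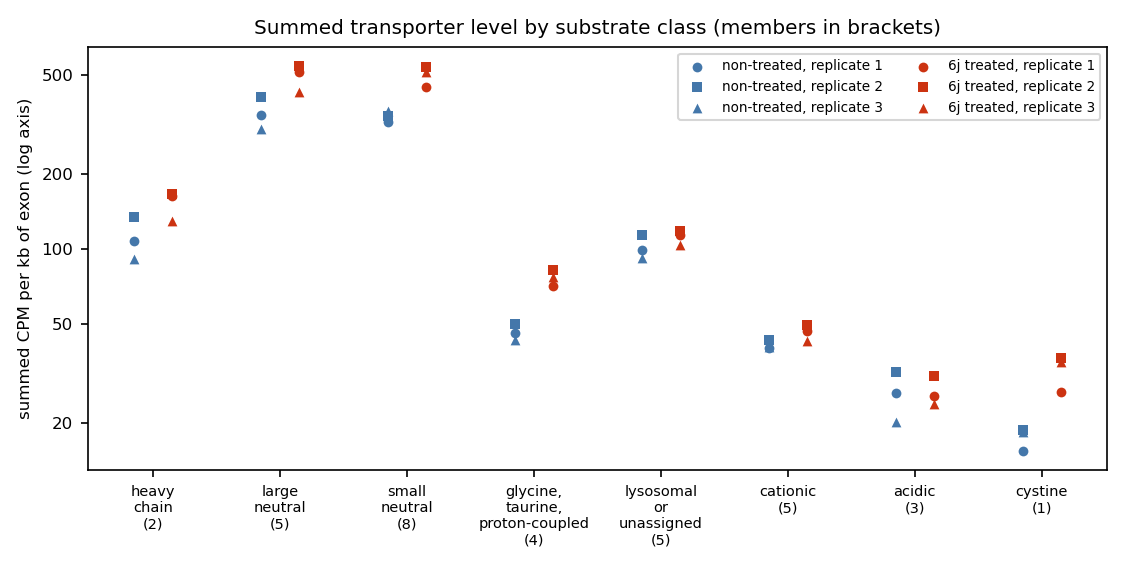
Summed CPM per kb of exon (log axis) of each substrate class in each library, with the number of members in brackets. The small neutral, large neutral, glycine and taurine, and cystine classes lie higher in all 6j treated than in all non-treated libraries, while the groups of the other classes overlap.

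Per length, the transporters summed to 1001, 1138 and 963 CPM per kb of exon in non-treated and 1409, 1559 and 1350 CPM per kb in 6j treated cells. This sum includes the heavy chain SLC3A2 (means of 111 in non-treated and 153 CPM per kb in 6j treated cells). It also includes SLC43A3 (75.6 and 82.2), known to carry purine nucleobases. The small neutral and the large neutral carriers held most of the sum. The small neutral class went from 322, 342 and 357 to 448, 536 and 513 CPM per kb. The large neutral class went from 346, 405 and 301 to 515, 541 and 425 CPM per kb. Most of this was SLC7A5, which was not called (means of 331 in non-treated and 466 CPM per kb in 6j treated cells). The 5 highest transporters per kb of exon in non-treated cells were SLC7A5 (331), SLC38A2 (175), SLC3A2 (111), SLC38A1 (81.6) and SLC43A3 (75.6). Their order depended on the length used. Per kb of the longest coding transcript it was SLC7A5 (347), SLC3A2 (258), SLC38A2 (236), SLC43A3 (130) and SLC38A1 (101). Of these 5, SLC38A1 alone was called. The other called genes, SLC1A4, SLC43A1, SLC6A9, SLC7A11 and SLC1A5, started from 5.86, 10.4, 14.1, 17.5 and 63.0 CPM per kb of exon. Across the 28 transporters, Spearman's rho between mean CPM and log2 fold change was 0.42, a description over genes that share the same 6 libraries. This mean CPM was taken over both groups and was not corrected for length. The 6j treated libraries therefore enter both the level and the fold change.

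With the replicate number as a block, 14 transporters were higher and 5 lower at an adjusted p under 0.05 in edgeR without a fold limit, against 13.1% and 13.9% of all rows. Those that passed this way and not in the fit without a block were SLC3A2, SLC6A15, SLC7A5, SLC36A4, SLC38A2 and SLC38A7 among the higher ones and SLC7A2, SLC7A6 and SLC38A3 among the lower. SLC38A3 also passed the fold limit, so the block gave 6 calls upward and 1 downward.

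A further list of 39 amino acid carriers outside the group, with mitochondrial, lysosomal, vesicular and other plasma membrane carriers, was described in the same way. Of these, 18 were tested, with a median log2 fold change of 0.06. Called by edgeR were 0 higher (2.48% of all rows) and 1 lower (1.12% of all rows). DESeq2 called 1 in all, which was lower (1.79% of the rows it gave an adjusted p). This was SLC25A22, the mitochondrial glutamate carrier, with counts of 2096, 1575 and 1690 in non-treated and 1352, 1097 and 1075 in 6j treated libraries. All 6j treated libraries lay below the non-treated ones (51.4 ± 3.75 against 31.8 ± 3.12 CPM, SD, n = 3 each). SLC25A22 fell by 0.69 on the log2 scale (SE 0.10) with an adjusted p of 0.0085 in edgeR, and the call held in 6 of 6 fits that left out 1 library. CTNS, the lysosomal cystine exporter, had a log2 fold change of 0.55. It was the 1 higher carrier at an adjusted p under 0.05 without a fold limit or a block, against 4.79% of all rows. The mitochondrial aspartate-glutamate carriers SLC25A12 (−0.47) and SLC25A13 (−0.36) were lower in that sense as well. With SLC25A22 this made 3 lower carriers, against 4.37% of all rows. With the replicate block and no fold limit, CTNS, PQLC2 and MFSD12 were higher (adjusted p = 0.00053, 0.0026 and 0.0026 in edgeR), against 13.1% of all rows. Lower in that fit were SLC25A12, SLC25A13, SLC25A15 and SLC25A22, against 13.9% of all rows. In the fit without a block, 9 of the 18 had an unadjusted p under 0.05 in either direction, against 26.2% of all rows.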

How the data were processed

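The submitters' processing notes name HISAT2, StringTie and GRCh38, with versions and counting program not given in the sources used here. For each of the 6 libraries the authors deposited raw counts by gene as whole numbers, used here without change. A value of 1 was less frequent than a value of 2 in every library, so they may be rounded estimates.

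From the counts, edgeR 4.0.16 (R 4.3.3) kept rows by filterByExpr, computed TMM factors and fitted robust quasi-likelihood models over all rows without covariates. P-values were adjusted by Benjamini-Hochberg over 15957 rows. Standard errors came from the F statistic and intervals from the t distribution on the moderated degrees of freedom. Lengths are all exons of a gene in GENCODE version 29, and sequences are from RefSeq (GRCh38.p14). The transporters, substrate classes and further carriers were chosen with earlier results of these data known, from general knowledge. Every transporter is accounted for. Values of every library are given for those called or with an adjusted p under 0.05 and groups apart, and for others where the text compares them.

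The groups share replicate numbers, whose meaning is not stated. Deviations from the group means correlated at 0.171, 0.18 and 0.312 for the same number and at −0.231 to 0.0795 for different numbers over 15957 rows. The numbers were therefore taken to pair the libraries. This pairing was read from the same counts that the block fit uses. Deviations within a group sum to 0, so these correlations are not independent of each other. The p-values with the block hold only if the numbers do mark paired libraries. The coding transcript length and the limit to rows of at least 10 CPM were chosen after seeing the data. DESeq2 1.42.0, other normalizations, filters and thresholds, the block and leaving out each library were alternatives. The kit is not stated to mark the strand, so reads of overlapping genes on opposite strands may be mixed. Floors cover counting error only.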

Additional observations from a re-analysis of the deposited data

How the results depend on the processing

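The number of transporters called higher was 6 in the analysis reported and 6 or 7 under the other normalizations, the other filters, DESeq2, Ensembl rows only and the replicate block. It was 8 with an adjusted p under 0.05 alone, 0 with the formal test of a 1.5-fold change and 3 to 8 with 1 library left out. Of all rows, 2.48% were called higher in the analysis reported, 4.01% with the replicate block and 4.79% with an adjusted p alone. This share is not given for the other settings, so the counts of transporters there have no such comparison. The number called lower was 0, and 1 with the replicate block or DESeq2, 2 with an adjusted p alone and 0 to 1 with 1 library left out. The rows called numbered 574, and 1033 with the replicate block, 774 with DESeq2, 1462 with an adjusted p alone, 32 with the formal test and 186 to 772 with 1 library left out. Of the further carriers, 1 was called, and 4 with an adjusted p alone, 0 with the formal test and 1 to 3 with 1 library left out (3 without 6j treated replicate 3, 2 without non-treated replicate 2). The median log2 fold change of the tested transporters was 0.34, and 0.30 where 1 CPM in 3 libraries was asked, a setting that leaves out SLC7A7, and 0.28 to 0.38 with 1 library left out.

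Among single transporters, the sign turned for values near 0. SLC38A10 went from −0.00 to 0.0016 with 1 CPM in 3 libraries, 0.016 with Ensembl rows only and 0.0023 without a low-count filter, and from −0.091 to 0.118 with 1 library left out. SLC1A1 (−0.17 to 0.15), SLC1A3 (−0.15 to 0.22) and SLC38A9 (−0.14 to 0.12) turned with 1 library left out. The replicate block changed the call of SLC38A3 and of no other transporter. The cause of the changes with left-out libraries was not tested. Where a library was left out, 5 samples set the spread.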
